A study of Mus musculus with 101 samples.

Results

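Among 85 naive mouse embryonic stem cell lines, 15 carried more methylation at imprinted regions than their methylation elsewhere predicted, and 15 carried less. The lines were chosen from the deposited region averages: the mean over 23 regions of the authors' Category imprinting was regressed on the mean over 764 regions of the other 10 Categories, and the lines with the 15 highest and the 15 lowest residuals were taken (high-residual and low-residual lines below). The remaining 55 lines lay between them. Every value behind the ranking was therefore used to choose the lines, and differences between the ends at target regions are descriptions without a test.

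The lines were derived from Diversity Outbred mice, a stock in which the genomes of several inbred founder strains are mixed, so that each line has a genotype of its own. Both ends share their culture, a serum and LIF medium to which 2i was added (inhibitors of MEK and GSK3 that keep cells naive), and no other treatment is labelled. DNA methylation was read by enzymatic methyl sequencing, an enzymatic counterpart of bisulfite sequencing, after capture with a Twist panel. By the prefix of their names the high-residual lines were 6 B1, 2 B2, 7 B3A and 0 B3B, and the low-residual lines 4 B1, 2 B2, 3 B3A and 6 B3B. The sources used here do not say what the prefixes stand for. Gene expression was not measured, so the cell type was not checked by markers. Sex, passage and the founder alleles of a line were not analysed here, and B1dB37 and B1dB37N, both high-residual, may be a single line measured in 2 columns.

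Genomic imprinting marks a gene by its parent of origin. Germline imprints are laid down on DNA in the egg or the sperm, and most known ones come from the egg. After fertilisation the methylated copy is protected by the zinc finger protein ZFP57 with TRIM28 and by the maintenance methyltransferase DNMT1, while much of the remaining genome is demethylated, and a somatic imprint appears later under the control of a germline one. In naive embryonic stem cells grown with 2i, prolonged culture is known to erode imprints together with methylation elsewhere.

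ZFP57 recognises the hexamer TGCCGC when it is methylated. Of 10 RefSeq promoters that lie in or across imprinting regions, 5 hold this hexamer and 5 do not. The promoters below are 4 with it and 1 without it, chosen to show both kinds, since methylation at such starts entered the ranking. Each is the stretch of 250 bases before a transcription start, 5′ to 3′, from RefSeq (GRCm38.p6, the coordinates of mm10), with TGCCGC or its reverse complement GCGGCA in capitals. They are Zdbf2 (chr1:63200108-63200357, plus strand), whose long transcript starts inside the Gpr1 region, Mest (chr6:30737800-30738049, plus strand), Plagl1 (chr10:13090582-13090831, plus strand), Zrsr1 (chr11:22971755-22972004, plus strand) and Meg3 (chr12:109540746-109540995, plus strand).
Zdbf2: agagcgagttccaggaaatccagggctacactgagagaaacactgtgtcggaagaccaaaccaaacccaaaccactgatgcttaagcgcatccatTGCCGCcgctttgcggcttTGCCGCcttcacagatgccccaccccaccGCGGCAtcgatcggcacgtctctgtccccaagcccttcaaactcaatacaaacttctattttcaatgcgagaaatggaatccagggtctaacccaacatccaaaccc
Mest: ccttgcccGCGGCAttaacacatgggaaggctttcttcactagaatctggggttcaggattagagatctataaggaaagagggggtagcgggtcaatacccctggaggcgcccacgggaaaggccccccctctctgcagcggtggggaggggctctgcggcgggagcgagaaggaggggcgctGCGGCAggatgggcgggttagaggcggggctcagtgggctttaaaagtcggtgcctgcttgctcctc
Plagl1: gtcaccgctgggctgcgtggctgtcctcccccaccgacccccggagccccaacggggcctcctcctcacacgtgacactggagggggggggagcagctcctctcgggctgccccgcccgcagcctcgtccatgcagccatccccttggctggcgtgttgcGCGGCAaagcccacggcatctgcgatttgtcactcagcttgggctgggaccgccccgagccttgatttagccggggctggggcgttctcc
Zrsr1: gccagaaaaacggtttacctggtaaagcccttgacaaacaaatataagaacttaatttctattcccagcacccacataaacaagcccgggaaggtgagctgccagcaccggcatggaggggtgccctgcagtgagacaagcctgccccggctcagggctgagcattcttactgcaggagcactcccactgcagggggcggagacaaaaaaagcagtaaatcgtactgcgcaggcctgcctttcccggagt
Meg3: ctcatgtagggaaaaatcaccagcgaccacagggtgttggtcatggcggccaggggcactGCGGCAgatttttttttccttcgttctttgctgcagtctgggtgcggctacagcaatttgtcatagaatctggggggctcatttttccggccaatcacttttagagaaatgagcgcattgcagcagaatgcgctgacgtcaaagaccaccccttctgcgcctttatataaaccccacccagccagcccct
The hexamer occurred 3 times in the Zdbf2 window, 2 times in the Mest window, 1 time each in the Plagl1 and Meg3 windows, and in none of the letters of the Zrsr1 window. Of the 32851 promoter windows of this length, 2850 (8.68%) hold it on either strand. Over the deposited CpGs inside each window, the mean methylation in high-residual and low-residual lines was 23.5% and 11.8% at Zdbf2 (10 CpGs), 17.3% and 10.4% at Mest (2 CpGs) and 21.9% and 11.5% at Plagl1 (5 CpGs). At Zrsr1, whose window lacks the hexamer, it was 28.3% in high-residual and 12.3% in low-residual lines (6 CpGs). At Meg3, the somatically imprinted one of the 5, the values were closer, at 24.95% in high-residual and 20.9% in low-residual lines (10 CpGs).

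The imprinting mean was 29.9% ± 8.06 in high-residual lines and 18.01% ± 14.3 in low-residual lines (SD, n = 15 each). The difference was 11.9 points, or 12.8 points when 15 lines per end were ranked again without B1dB37N. In such pools of cells, partial methylation in every cell and a mixture of methylated and unmethylated cells cannot be told apart. By line it ran from a lowest value of 14.5% over a median of 28.5% to a highest of 40.6% in high-residual lines, and over 1.18%, 16.2% and 45.3% in low-residual lines, so that the ends overlapped. Elsewhere the order was the other way, with 18.5% ± 7.12 in high-residual and 21.3% ± 12.7 in low-residual lines (SD, n = 15 each). The low-residual lines took in lines with almost no methylation (B3Bd20N, 4.44% elsewhere) and lines with the most (B1dC17, 43.7% elsewhere), whereas the high-residual lines lay between 6.95% and 28.3%. Across all 85 lines the means of imprinting and other regions were closely related (r = 0.909, a slope of 1.12 points per point), and the residuals had an SD of 5.15 points.

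**Figure D1:**
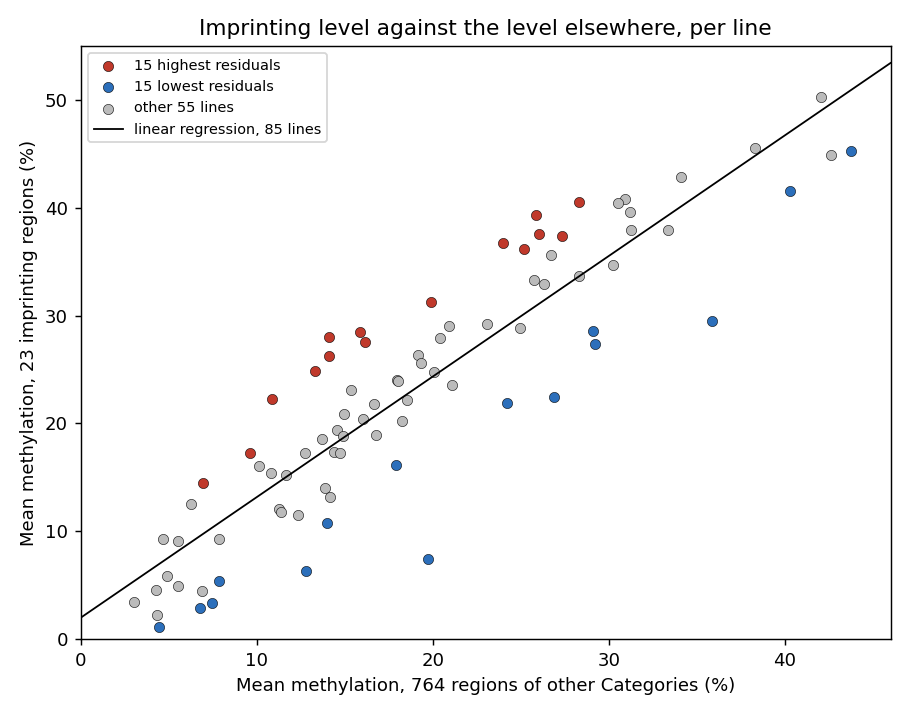
Mean methylation of 23 imprinting regions (y axis, %) against that of 764 regions of other Categories (x axis, %), 1 point per line, with the regression over 85 lines. The 15 high-residual lines (red) lie above the line between 6.95% and 28.3% on the x axis, and the 15 low-residual lines (blue) lie below it over the whole range.

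The name given to the high-residual lines holds only relative to their own level. A region with a single, fully methylated parental copy would read about 50%, and 12 of 340 imprinting values in high-residual lines and 18 of 343 in low-residual lines reached 50%. The 12 values came from 11 high-residual lines, most of them at Peg13, and the 18 from 6 low-residual lines. Imprinting regions with a value under 10% numbered from 0 to 7 per high-residual line, with a median of 1, and from 0 to 23 per low-residual line, with a median of 6. Those under 25% had a median of 4 per high-residual line and 21 per low-residual line. These counts are not adjusted for level, and the level elsewhere went down to 4.44% in low-residual lines, against 6.95% in high-residual lines. In the high-residual lines too, most imprinting values were thus below 50%, but few were under 10%. Whether methylation had been lost was not tested, since no earlier state of the lines was measured.

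The residuals formed a continuous range. The highest was 10.3 points in B3Ad33N, followed by 8.80 in B1dA18, 8.48 in B1dB37N, 8.37 in B3Ad7N and 8.07 in B3Ad14N. The 5 lines just inside the high end had 6.49 (B1dB43N), 6.06 (B1dC13N), 4.80 (B1dB5), 4.71 (B3Ad26N) and 4.54 points (B3Ad20N). The 5 just outside it had 4.30 (B1dA23), 4.25 (B1dD4N), 3.99 (B3Bd39), 3.69 (B1dA9N) and 3.62 points (B1dB33), so no gap marks the upper boundary. At the low end, B3Bd15N stood lowest at −16.6 points, then B1dB40 at −12.5, B2d32 at −9.96 and B2d2A at −9.59. Just inside were B3Bd25N (−5.86), B3Bd20N (−5.78), B1dC17 (−5.62), B3Bd44N (−5.47) and B3Ad21N (−5.37), and just outside B3Bd40 (−5.28), B1dA5 (−4.76), B1dB25 (−4.64), B3Ad36 (−4.58) and B3Bd18 (−4.28).

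At nearly equal methylation elsewhere, some lines of opposite ends differed several-fold at imprints and others by less. For 7 high-residual lines a low-residual line lay within 1 point of the same level elsewhere. B3Ad11N had 19.9% elsewhere and B3Bd15N 19.7%, while their imprinting means were 31.3% in B3Ad11N and 7.47% in B3Bd15N, with 21 of 23 regions higher in B3Ad11N. Among B2 lines there was 24.9% at imprinting regions in B2d12 and 6.37% in B2d32, at 13.3% and 12.8% elsewhere, and 22 of 23 regions were higher in B2d12. Near the bottom of the range, B3Ad26N had 14.5% and B3Bd19 2.87% at imprinting regions, at 6.95% and 6.78% elsewhere. In relative terms other pairs were closer, such as B2d7 with 40.6% and B1dB19 with 28.6% at imprinting regions. Over the 7 pairs the imprinting means differed by 11.6 to 23.8 points, and between 19 and 22 regions were higher in the high-residual line of the pair. Each pair joins opposite ends of the ranking, so these gaps and counts follow from the choice of lines and nothing is read from them.

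**Figure D2:**
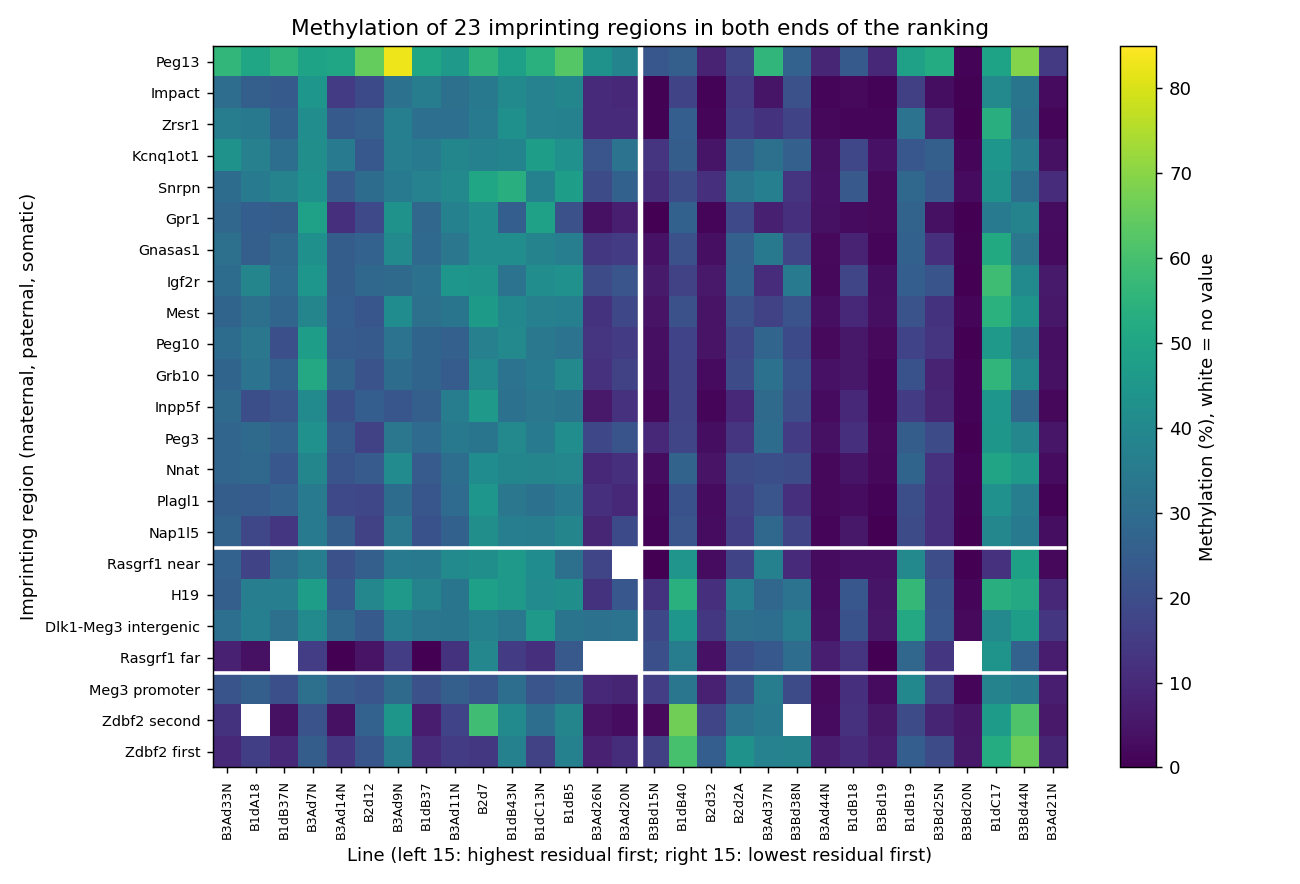
Methylation (%, colour) of the 23 imprinting regions (rows, grouped as maternal germline, paternal germline and somatic) in the 15 high-residual lines (left, highest residual first) and the 15 low-residual lines (right, lowest residual first); white cells have no value. The maternal rows change together from line to line, and several low-residual columns are dark over nearly all rows.

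To compare single loci, each region was regressed on the mean of the other Categories over all lines that had a value, and the mean residual of the high-residual lines minus that of the low-residual lines is called the level-adjusted difference. Of the 23 imprinting regions, 19 had a level-adjusted difference of 10 points or more, where 4.07% of all 787 kept regions did, and 21 were above 0. Since the rule averaged these 23 regions, the count is fixed by the choice of lines and nothing is read from it. By the same choice, between 17 and 21 regions lay above their fit in each high-residual line (median 20), and between 1 and 5 in each low-residual line (median 2). When the lines were ranked again without the region being looked at, 18 regions had a difference of 10 points or more, and 13 to 15 of the high-residual lines stayed in place.

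All 16 maternal germline regions were higher in high-residual lines, with level-adjusted differences of 15.8 to 28.5 points and a median of 18.2. At 9 of them the level-adjusted values of the ends did not overlap, where 1.4% of all kept regions did not. The deposited values overlapped at all 23 regions. Because 16 of the 23 regions are maternal, the ranking follows the maternal imprints most.

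Peg13, a noncoding RNA within the Trappc9 gene (chr15:72809272-72809627), had the largest of these differences. Its methylation was 38.3%, 50.4% and 82.9% (lowest, median, highest) in high-residual lines and 0.672%, 24.1% and 69.4% in low-residual lines. All 15 high-residual lines and 3 of 15 low-residual lines lay above the fit, by 16.03 points on average in high-residual lines, against −12.5 points in low-residual lines, a difference of 28.5 points. It was also the most methylated imprinting region in these cells, with a mean of 38.2% over all 85 lines.

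At Kcnq1ot1 (chr7:143295618-143296585), an antisense RNA that silences neighbouring genes in cis, methylation was 22.6%, 36.95% and 47.2% in high-residual lines and 1.22%, 22.97% and 44.6% in low-residual lines. Once adjusted for level, the ends did not overlap there, with a difference of 19.8 points. At Airn, the antisense RNA that starts inside Igf2r (chr17:12742174-12742702), the values were 19.5%, 31.7% and 44.7% in high-residual lines and 0.147%, 16.6% and 58.5% in low-residual lines. The level-adjusted difference was 18.2 points, and here 2 high-residual lines lay below the fit and 2 low-residual lines above it. At Gnasas1, antisense to the Nesp transcript of the Gnas locus (chr2:174295026-174296544), the mean was 31.3% ± 9.23 in high-residual and 16.3% ± 15.5 in low-residual lines (SD, n = 15 each), the level-adjusted difference 18.3 points, and the ends did not overlap.

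Protein-coding maternally imprinted genes had differences of 15.8 to 21.4 points. Impact, an inhibitor of the kinase GCN2, had 28.6% ± 11.1 in high-residual and 10.6% ± 12.8 in low-residual lines (SD, n = 15 each), a level-adjusted difference of 21.4 points without overlap. Zrsr1, a retrogene related to splicing factors that lies within Commd1, followed with 20.6 points, and Snrpn, which encodes a protein of small nuclear ribonucleoproteins, with 19.3 points. Mest, Peg10 and Grb10, genes with roles in growth or placenta, had 18.1, 17.9 and 17.2 points. The phosphatase gene Inpp5f, the zinc finger genes Peg3 and Plagl1, neuronatin (Nnat) and the retrogene Nap1l5 had between 15.8 and 17.2 points. At Nnat, methylation in high-residual lines was 9.80%, 28.5% and 41.2%, against 0.714%, 12.2% and 49.8% in low-residual lines, and its residual tracked that of the other imprinting regions most closely (r = 0.878 over 85 lines that share their libraries). The Gpr1 region, where the long Zdbf2 transcript starts, was less even: 12 of 15 high-residual lines lay above the fit, and 0 of 15 low-residual lines did, with a difference of 18.6 points.

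Paternal germline regions had smaller or mixed differences. H19, the imprinting control region upstream of the H19 noncoding RNA (chr7:142580501-142582201, 2355 bp from the gene), is bound by CTCF on the unmethylated copy. Methylation there was 12.4%, 38.05% and 48.1% in high-residual lines and 1.47%, 23.1% and 56.8% in low-residual lines, and the level-adjusted difference was 13.01 points with overlapping ends. At the intergenic region that controls the Dlk1 and Meg3 genes (chr12:109527383-109530388), methylation was 24.1%, 33.1% and 45.9% in high-residual lines and 2.06%, 23.02% and 51.3% in low-residual lines, with a difference of 11.1 points. The difference was 9.03 points when the lines were ranked without that region.

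The pair of regions upstream of Rasgrf1, which encodes a guanine nucleotide exchange factor, overlapped no annotated gene and differed from each other. The region nearer the gene (chr9:89879351-89880252) had 31.9% ± 9.12 in high-residual lines (SD, n = 14) and 16.4% ± 17.5 in low-residual lines (SD, n = 15), a level-adjusted difference of 17.9 points. The farther region (chr9:89870292-89870657) had 12.4% ± 11.05 in high-residual lines (SD, n = 12) and 19.6% ± 12.8 in low-residual lines (SD, n = 14), a level-adjusted difference of −5.32 points. Its residual ran against that of the other imprinting regions (r = −0.365 over the 72 lines with a value). It is filed by the authors as imprinting, and the sources used here do not say whether it lies within the imprinted element itself.

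The 3 somatic regions had differences under 10 points. The Meg3 promoter (chr12:109540510-109543677) had 8.81%, 22.8% and 31.4% in high-residual lines and 1.46%, 16.4% and 39.6% in low-residual lines, a level-adjusted difference of 6.50 points, with 11 high-residual and 2 low-residual lines above the fit. Of the pair of regions inside Zdbf2, the first (chr1:63260549-63261295) had 18.8% ± 10.4 in high-residual and 28.1% ± 20.5 in low-residual lines (SD, n = 15 each), a difference of −5.33 points. The second (chr1:63263781-63263926) had 22.3% ± 18.2 in high-residual and 22.99% ± 22.1 in low-residual lines (SD, n = 14 each), a difference of 3.002 points. The differences of the first region and of the germline Gpr1 region of the same locus thus had opposite signs, at −5.33 and 18.6 points. At the first region the ends were mixed, with 7 of 15 high-residual and 10 of 15 low-residual lines above the fit.

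**Figure D3:**
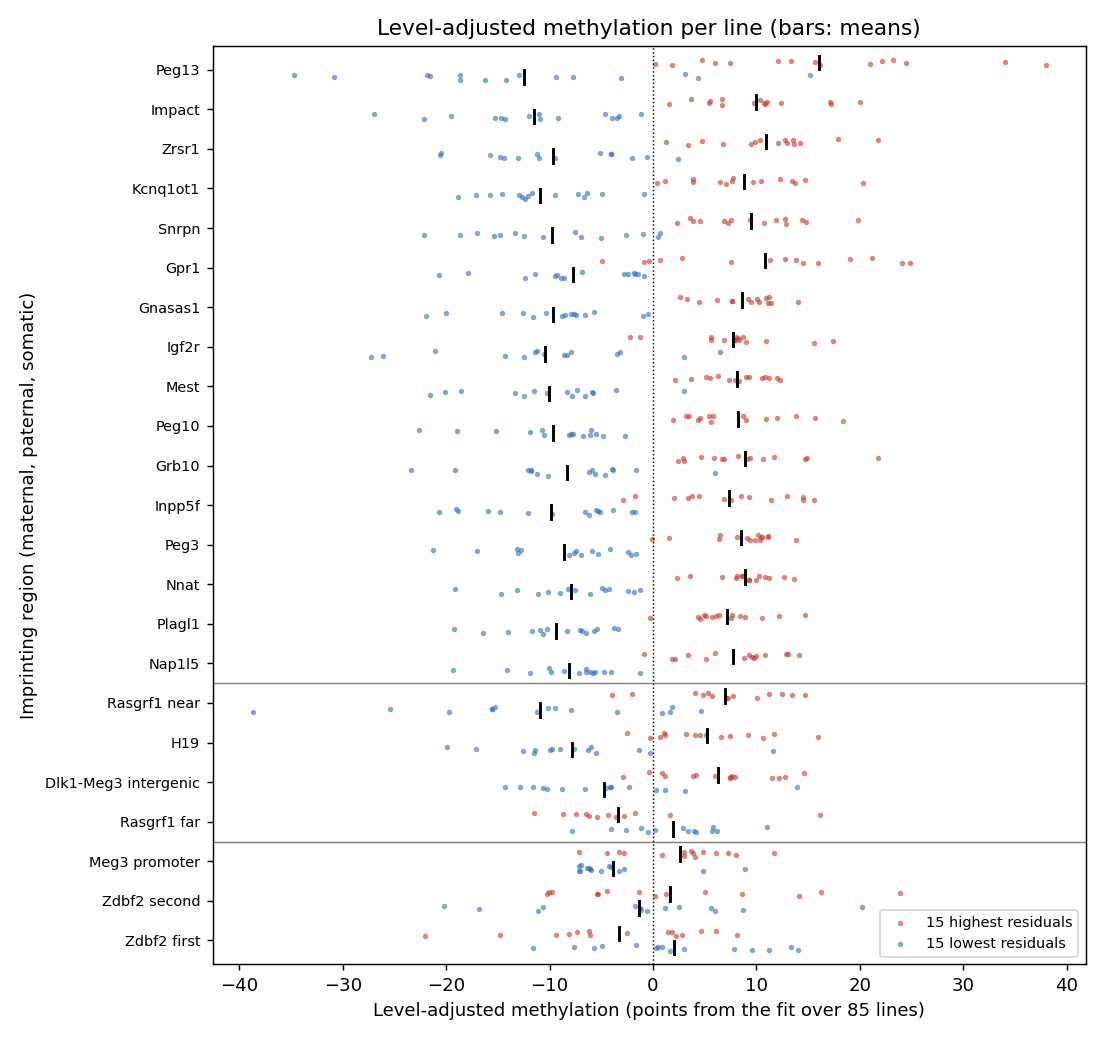
Level-adjusted methylation (x axis, percentage points from the fit over 85 lines) at each imprinting region (rows, grouped as maternal germline, paternal germline and somatic), 1 point per high-residual line (red, upper) and low-residual line (blue, lower), with bars at the means. The ends separate at most maternal rows and mix at the farther Rasgrf1 region and at both Zdbf2 regions.

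Most single CpGs inside imprinting regions had a difference above 0, as most of the region averages had. Of 937 CpGs inside imprinting regions in the deposited CpG table, 927 had a level-adjusted difference above 0. The 10 others were all 8 of the first Zdbf2 region, 1 of 31 at the Meg3 promoter and 1 of 44 at the Dlk1-Meg3 intergenic region. Within Grb10, 136 CpGs ranged from 3.62 to 26.5 points, and within Peg13 10 CpGs ranged from 24.7 to 32.7 points. No CpG of either Rasgrf1 region or of the second Zdbf2 region was in the table analysed here. The CpGs come from the same libraries as the region averages and lie in the regions that chose the lines. Their count above 0 therefore follows from that choice, and nothing is read from it. Of the 764 regions of other Categories 276 were above 0, and no such count is given for single CpGs there.

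Because the maternal regions dominate the mean, the lines were also ranked on each germline class alone, an alternative chosen after seeing the data. Ranked on the 16 maternal regions, 13 of the high-residual and 14 of the low-residual lines stayed in place, and the 4 paternal regions, which then had no part in the ranking other than as libraries of the same lines, had level-adjusted differences of −5.40 to 13.3 points, with 3 of 4 above 0. Ranked on the 4 paternal regions, 4 high-residual and 9 low-residual lines stayed in place, and 1 high-residual line moved to the low end. All 16 maternal regions were then above 0, by 5.44 to 14.8 points, with a median of 8.20, and 4 of them reached 10 points. In the maternal ranking, 2 of the 4 paternal regions reached 10 points. In both rankings the somatic regions had 1 of 3 above 0. No share over other regions was computed for these rankings, so the counts have no background and nothing is read from them.

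Outside the Category imprinting, the level adjustment used the mean of these same regions, which holds their average difference near 0 by construction. Only how single Categories and regions depart from that average is described here. The group means of the other Categories were 0.436 to 3.18 points lower in high-residual lines as deposited. After adjustment for level, 9 of these 10 Categories lay between −0.619 and 0.403 points, and the Category 2-cell stage, regions of genes active in the embryo at that stage, stood at 2.63 points. The median over the regions of the 2-cell stage Category was lower, at 0.849 points. That Category had 27.6% ± 10.6 in high-residual and 28.8% ± 17.7 in low-residual lines (SD, n = 15 each). Of its 46 regions 4 were 10 points or more higher in high-residual lines, where 1.7% of the 764 other regions were. Over the 743 other regions with a value in at least 12 lines of each end, the median was −0.378 points, 13 were higher by 10 points or more and 3 lower by as much (0.393% of 764, and 0.381% of all 787).

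**Figure D4:**
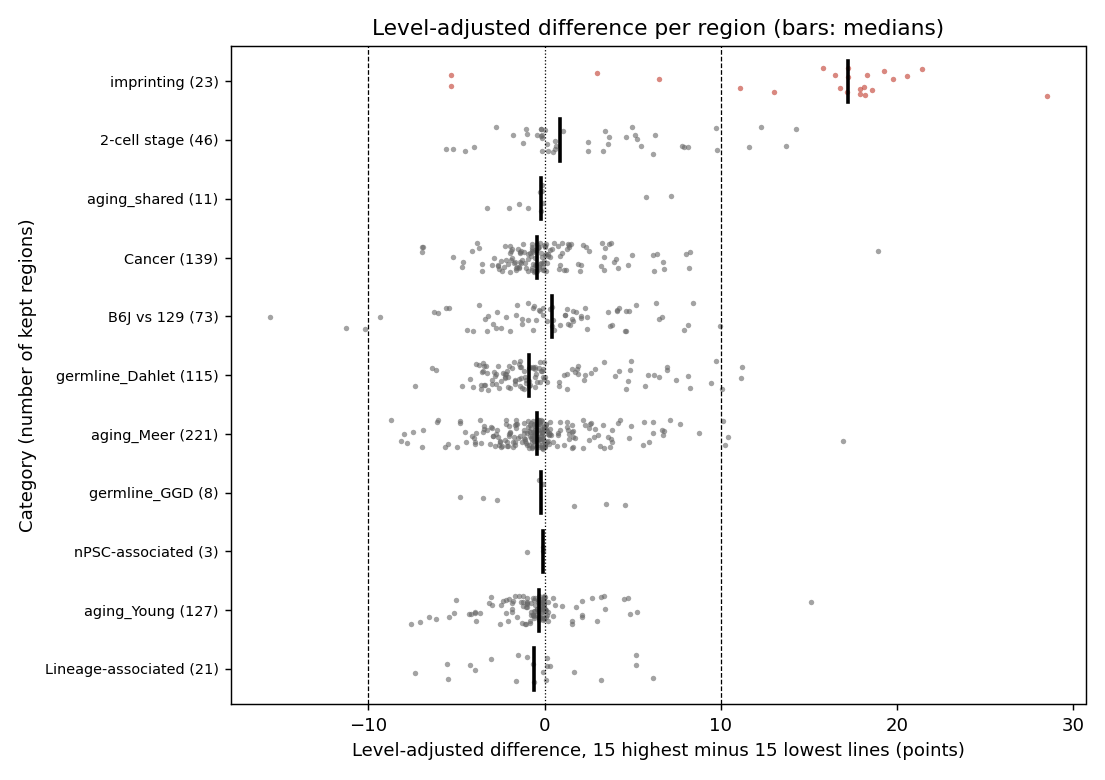
Level-adjusted difference between the 15 high-residual and the 15 low-residual lines (x axis, percentage points) for each kept region, by Category (rows, with the number of regions), with bars at the medians and dashed lines at 10 points in each direction. The imprinting regions centre at 17.2 points, and regions of other Categories centre near 0, where the adjustment places them, with 13 beyond 10 points and 3 beyond −10.

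The 2 most positive regions outside the Category lay at imprinted loci. A region of the Category Cancer inside Gnas, which encodes a G protein subunit (chr2:174297917-174298416), lay 1373 bp from the Gnasas1 region and shared no base with it. Its methylation was 17.9%, 44.3% and 56.4% in high-residual lines and 3.40%, 20.8% and 72.2% in low-residual lines. The level-adjusted difference was 18.9 points, with 15 high-residual and 0 low-residual lines above the fit. A region of the Category aging_Meer at Nap1l5 (chr6:58906528-58907028) followed at 16.9 points, but 229 bp of it are shared with the Nap1l5 imprinting region. These were the only 2 of the 764 regions whose level-adjusted values did not overlap between the ends (0.262%).

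Other regions of imprinted genes moved less. At Peg10 a Cancer region 8044 bp from the imprinted one had 59.4% ± 15.98 in high-residual and 56.5% ± 25.7 in low-residual lines (SD, n = 15 each), and a level-adjusted difference of 8.26 points. A pair of Meg3 regions of the Category B6J vs 129, which share 1304 and 699 bp with the Meg3 promoter region, had 6.32 and 6.50 points, like that region itself. The last Meg3 region, 2063 bp beyond the promoter one, had −0.410 points. Magel2, in the same imprinted domain as Snrpn, had 0.188 points, Pon2 −2.54, Klf14 0.00 and a pair of overlapping Fkbp6 regions −2.37 and −2.42. At Klf14 methylation reached at most 1.78% in the lines of both ends, so that region could not differ by 10 points. Zim3, a zinc finger gene of the Peg3 domain filed under germline_Dahlet, stood at 11.2 points, with 10 of 13 high-residual and 5 of 14 low-residual lines above the fit.

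The other 7 of the 10 most positive regions were, like Zim3, on none of the lists of imprinted genes. They were a region near the interferon gene Ifna13 (15.1 points), Gm5576 (14.3), Gm18765 (13.7), Abcb5, which encodes a membrane transporter (12.3), Eif4a3l2 (11.6), the X-linked 1700080O16Rik (11.1) and a region near Gm19689 (10.4). Near Ifna13, methylation was 24.7%, 51.1% and 73.3% in high-residual lines and 4.20%, 38.9% and 85.2% in low-residual lines. The count depended on the shape of the fit: when each region was adjusted for level with a quadratic term, an alternative chosen after seeing the data, 6 of the 13 remained at 10 points or more. These 6 were Gnas (17.4), Nap1l5 (15.8), the region near Ifna13 (12.04), Abcb5 (11.8), Gm5576 (10.8) and Zim3 (10.4). Under the same adjustment 18 of 23 imprinting regions remained at 10 points or more, the Dlk1-Meg3 intergenic region being at 9.12.

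The 3 most negative regions belonged to the Category B6J vs 129, which names a pair of inbred mouse strains. Both regions of Lhx9, a homeobox transcription factor of gonad development, were lower in high-residual lines. At the first (chr1:138842376-138843259) methylation was 0.900%, 4.63% and 66.2% in high-residual lines and 1.09%, 22.4% and 72.7% in low-residual lines, with a level-adjusted difference of −15.6 points, and at the second it was −11.3 points. Cd59a, a complement inhibitor, stood at −10.2 points, with 2.68% ± 4.22 in high-residual and 12.98% ± 14.2 in low-residual lines (SD, n = 15 each). Across 85 lines the correlation with the mean elsewhere was 0.373 for the first Lhx9 region, 0.599 for the second and 0.0406 for Cd59a, and at both genes the deposited values of the ends overlapped. The other 7 of the 10 most negative were Slfn9 (−9.36), the tumour necrosis factor receptor gene Tnfrsf1a (−8.75), Tmem178 (−8.15), the matrix protein gene Fbln1 (−7.96), Anxa6 (−7.80), Rgma (−7.58) and the glycosyltransferase gene Mgat5 (−7.47).

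Regions listed for genes of DNA or histone methylation did not pass 10 points. Of 4 such regions, that of Tet3, an enzyme that oxidises methylated cytosine, was the most positive at 8.78 points, with 60.3% ± 15.9 in high-residual and 57.0% ± 24.2 in low-residual lines (SD, n = 15 each). Dnmt3l, the cofactor that sets germline imprints, had −2.46 points, and the regions of the histone methyltransferase genes Ehmt1 and Ehmt2 had 0.13 and −0.59. In the lines of both ends, methylation reached at most 1.11% at Ehmt1 and 4.46% at Ehmt2, so these regions could not differ by 10 points. Germline genes that are silenced by promoter methylation, among them many of genome defence and meiosis, gave 0 of 33 listed regions past 10 points in either direction, and their median was −1.39 points. Over the 764 other regions the shares were 1.7% higher and 0.393% lower, so a count of 0 in such a list is near the background. The list does not hold all germline regions, and 3 of 115 in the Category germline_Dahlet were higher by 10 points or more, Zim3 and 1700080O16Rik among them. Among the 33 listed regions, the largest differences in either direction were at Tuba3b (6.50), Dpep3 (6.19) and Tex19.1 (−4.82). Of 12 regions of lineage genes 0 were higher and 2 lower (0.393% of the 764), both at Lhx9, and Calml3 stood at 6.16. The pluripotency regions at Zfp42 and Tbx3 had −1.02 and −0.07 points. The Tbx3 region reached at most 1.18% in the lines of both ends, so it could not differ by 10 points. At Zfp42 methylation was 0.377% ± 0.904 in high-residual and 1.47% ± 2.49 in low-residual lines (SD, n = 15 each), with a highest value of 9.09% in a low-residual line. Of 12 X-linked regions 1 was higher by 10 points or more, against 1.7% of the 764, and 0 were lower, against 0.393%, with a median of 1.33 points and Ct55 lowest at −6.41.

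Regions set aside for missing values, which had no part in the ranking, did not separate the ends. The 58 of them with any value averaged 29.04% ± 11.05 in high-residual and 30.5% ± 19.8 in low-residual lines (SD, n = 15 each). The 135 CpGs outside kept regions averaged 28.6% ± 7.63 in high-residual and 27.8% ± 12.6 in low-residual lines (SD, n = 15 each).

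The residual of all 85 lines was then compared between labels, which the ranking had not used. It differed between prefixes (F = 4.59, permutation p = 0.00474). The mean residual was 0.868 ± 5.14 points for the 28 B1 lines, 0.208 ± 4.46 for the 18 B2 lines, 1.90 ± 5.22 for the 20 B3A lines and −3.48 ± 4.34 for the 19 B3B lines (SD). Of 6 pairs of prefixes, those with B3B passed: the residual was higher in B3A than in B3B by 5.38 points (two-sided permutation test, adjusted p = 0.00654), in B1 by 4.35 (adjusted p = 0.0126) and in B2 by 3.69 (adjusted p = 0.0272). The other 3 pairs differed by −1.69 to 0.660 points, with adjusted permutation p between 0.436 and 0.659. In B3B 4 of 19 lines had a residual above 0, against 14 of 20 in B3A, 17 of 28 in B1 and 13 of 18 in B2, and each prefix spread over a range far wider than the differences between their means.

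**Figure D5:**
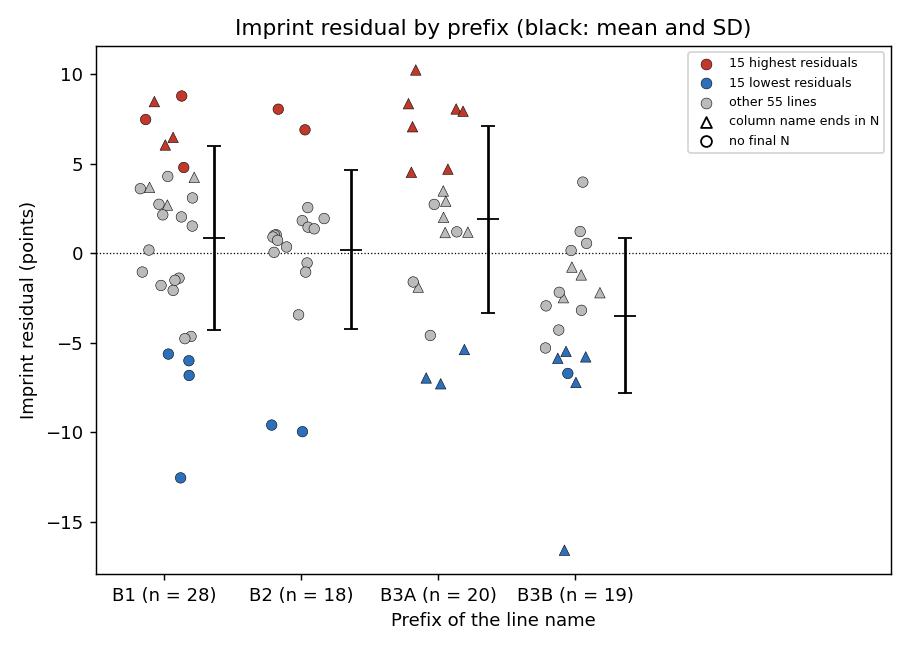
Imprint residual (y axis, percentage points) of each line by prefix (x axis), with triangles for column names that end in N, red for high-residual and blue for low-residual lines, and the mean and SD in black. No B3B line is among the 15 high-residual lines, and the lowest residual, −16.6 points, is B3Bd15N.

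The prefixes differed among columns whose names end in N, a letter that the sources used here do not explain. When the regression was fitted again on the 31 such columns, the prefixes differed (F = 10.2, permutation p = 0.00068), and on the 54 columns with no final N they did not pass (F = 0.473, permutation p = 0.704). B2 has no column with a final N, and B3A has only 4 without one, so the 2 fits compare unlike sets of lines. These fits and those that follow were chosen after seeing the data. Without the lowest line, B3Bd15N, the difference between prefixes remained (F = 3.51, permutation p = 0.0193), and with residuals from the paternal germline regions alone it did not pass (F = 2.28, permutation p = 0.0867).

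Over the 67 columns of the other 3 prefixes, those with a final N were higher by 1.59 points within prefix, which did not pass (two-sided permutation test, p = 0.252). The 16 lines with 2 titles differed from the others by −0.482 points within prefix (two-sided permutation test, p = 0.725). The high-residual lines lacked a value at 33 to 120 regions (median 68) and the low-residual lines at 32 to 100 (median 55). Over 85 lines the number of regions without a value, which stands in for a depth that the files do not give, was not related to the residual past the threshold (Pearson r = 0.103, permutation p = 0.345, adjusted p = 0.345; Spearman rho = 0.163, permutation p = 0.134, adjusted p = 0.268). Leaving out the 2 lines farthest from the median of missing regions gave r = 0.0868. For single prefixes, Pearson r was 0.0658 (B1, permutation p = 0.741), 0.448 (B2, permutation p = 0.0594), 0.306 (B3A, permutation p = 0.188) and −0.166 (B3B, permutation p = 0.463). Spearman rho was 0.542 in B2 (n = 18), the only prefix where a coefficient was under 0.05 (permutation p = 0.0207, not adjusted over prefixes), and 0.0123 in B1 (permutation p = 0.95), 0.284 in B3A (permutation p = 0.223) and −0.298 in B3B (permutation p = 0.214).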

How the data were processed

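DNA methylation was measured in mouse embryonic stem cells by enzymatic methyl sequencing with targeted capture, per the labels. The authors deposited 2 tables of methylation as a fraction, with 85 columns each: averages over 868 target regions and values of 7917 CpGs. The submitters' processing notes name Bismark, Bowtie2, Trim Galore 0.6.4 and the build mm10, with roles and order not given in the sources used here. A coverage filter of 10 is stated in the table names. The tables hold no read counts, so depth is unknown, no counting interval was computed, and values from few and from many reads could not be told apart.

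All values are given as percent and differences as percentage points. Of the 85 columns, 44 matched 1 title and 41 were used through their prefix only: 16 name lines with 2 titles, and most others carry a final N that the title lacks. No label states that the columns are separate cultures, so a p-value reflects only how columns vary, which may be technical. A region was kept if at least 80% of columns had a value (787 of 868), and lines were ranked by the residual of an ordinary linear regression. Labels were compared by permutation (two-sided, 100000 resamples), for which the smallest p is 1e-05, with a threshold of 0.05 and Benjamini-Hochberg adjustment within a family. The procedures were tested on simulated data. Gene names came from RefSeq (GRCm38.p6), and maternal, paternal and somatic classes were assigned from background knowledge.

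The members, gene lists and tests were chosen with earlier results of these data known. The text names every imprinting region, the 10 most positive and 10 most negative other regions, the regions of imprinted and machinery genes, up to 3 of each other list, and the 5 lines on each side of each boundary; the 5 highest and 4 lowest lines were added after their values were seen. Alternatives changed the regions, the scale, the fit, the lines used and the number of lines per end. Python 3.11.15, NumPy 2.4.6, pandas 2.3.3, SciPy 1.17.1 and matplotlib 3.10.9 were used.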

Additional observations from a re-analysis of the deposited data

Results flagged for a closer look

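The effect of a final N in the column name on the imprint residual differed between prefixes (permutation test of the difference among 3 prefixes, p = 0.0107, chosen after seeing the data). Columns with a final N were higher by 5.62 points in B1 (mean 5.28 in 6 columns with N and −0.335 in 22 without) and by 3.07 points in B3A (2.52 in 16 and −0.557 in 4). In B3B the difference was −3.42 points (−5.28 in 9 columns with N and −1.86 in 10 without). All 6 N columns of B1 had a residual above 0 and all 9 of B3B below 0. Whether N marks a batch, a derivation or a kind of line was not tested.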

How the results depend on the processing

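Over 19 alternatives, the difference between the ends at imprinting regions ranged from 8.70 points on a log2 odds scale to 21.5 points without a slope. In each the ends were again chosen by an imprinting residual, so a positive sign follows from the choice of lines. The shift was less than 14.3 points, the SD of the low-residual lines, in each. That SD is larger than the difference of 11.9 points itself, so stability is not read from it. Of the lines, 13 high-residual and 12 low-residual ones stayed in place with a quadratic term. The prefix result passed 0.05 in 16 of 18 alternatives (F from 0.473 to 10.2); it did not pass on columns with no final N (F = 0.473) or on paternal germline regions alone (F = 2.28). The comparison of lines with 2 titles, −0.482 points, turned to 0.151 with a quadratic term and 0.237 without a slope, and passed in none of 11 alternatives. The final N and missing-region comparisons passed in none of 12 each. The second Zdbf2 region had −0.36 points with 20 lines per end; the other 114 of 115 locus values kept their direction. Other-Category regions 10 points or more higher numbered 13, or 6 with a quadratic level adjustment; those lower numbered 3, or 5 with 10 lines per end and 5 in lines with 1 title. The causes were not tested. A coverage minimum could not be varied, since the tables hold no coverage. No paired analysis was possible because the columns carry no replicate numbers. Unknown depth limits every single value, most of all near 0%.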
